A study of Mus musculus with 4 samples.

Results

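Lamin A, the lamin B receptor and the LEM-domain proteins line the inside of the nuclear envelope together with the B-type lamins. Their transcripts were followed in mouse embryonic stem cells that had or lacked B-type lamins. The set was a list of 10 gene symbols: Lmna, Lbr, Emd, Tmpo, Lemd2, Lemd3, Ankle2, Banf1, Zmpste24 and Tor1aip1. All 10 matched exactly 1 of the 37991 rows of the count table, and all 10 were among the 14027 genes that passed the low-count filter and were tested. RNA sequencing covered 2 genotypes with 2 biological replicates each: wild-type (wt) cells and cells null for both B-type lamins (dKO). All 4 libraries carry the strain label ZHBTc4, an embryonic stem cell line known for a drug-repressible Pou5f1 transgene in place of the endogenous gene. The labels do not say whether the replicates were separate clones or cultures of 1 line, so p-values measure the spread between these libraries, and the effect of genotype and that of the line cannot be told apart.

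The nuclear lamina is a meshwork of lamin filaments under the inner nuclear membrane. It anchors chromatin and membrane proteins and takes part in the disassembly and rebuilding of the nucleus at mitosis. A-type lamins come from Lmna and B-type lamins from Lmnb1 and Lmnb2. The lamin B receptor binds B-type lamins and the heterochromatin protein HP1, while proteins with a LEM domain bind the small DNA-bridging protein BAF, encoded by Banf1. Embryonic stem cells are known for little lamin A and abundant lamin B receptor. The comparison addressed whether transcripts of the remaining lamina proteins differed once both B-type lamins were missing.

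Total counts ranged from 12899964 to 16697970 per library. Levels are given as CPM, which are counts scaled to library size, here with TMM factors between libraries. Lmnb1 had 8538 and 8321 counts in wt replicates 1 and 2, against 69 and 101 in dKO replicates 1 and 2. Lmnb2 had 1343 and 1787 counts in wt against 41 and 55 in dKO libraries. Both targeted transcripts therefore matched the genotype labels in all 4 libraries. The 8 embryonic stem cell markers examined, Pou5f1 among them, had counts in every library and summed to 4978 and 5008 CPM in wt against 5712 and 6108 CPM in dKO libraries. Of the 8, 4 had positive and 4 negative log2 fold changes, and Zfp42 had the largest difference, at 666 and 613 CPM in wt against 1449 and 1435 CPM in dKO libraries. Fibroblast markers, which would mark feeder cells, summed to 6.25 and 8.68 CPM in wt against 4.79 and 5.49 CPM in dKO libraries. Of these 8 markers, S100a4 was at 0 in all 4 libraries and Lum had at most 1 count. Primitive endoderm markers summed to 15.2 and 8.35 CPM in wt against 24.9 and 17.6 CPM in dKO libraries. Of these 5 markers, 4 had positive and 1 a negative log2 fold change. Sox7 had the largest difference, at 4.61 and 2.10 CPM in wt against 11.2 and 7.70 CPM in dKO libraries. Trophoblast markers summed to 23.6 and 44.1 CPM in wt against 24.1 and 41.4 CPM in dKO libraries, and the 3 neural markers with a row to 82.1 and 46.8 CPM in wt against 66.0 and 39.0 CPM in dKO libraries. The part of these other cell types in the results below was not tested.

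None of the 10 lamina partner genes passed an adjusted p of 0.05 in either direction. Their log2 fold changes (dKO minus wt) ran from -0.58 for Lemd2 to 0.23 for Lbr, 6 positive and 4 negative, a split that was the same with DESeq2 size factors and with total counts only. The median was 0.06, against a median of -0.002 over all genes tested. The test was edgeR's quasi-likelihood test with Benjamini-Hochberg adjustment over all 14027 genes, of which 12 (0.0855%) passed, 5 higher (0.0356%) and 7 lower (0.0499%) in dKO cells. The smallest adjusted p among the 10 was 0.867, for Lemd2. DESeq2 and limma-voom also called 0 of the 10, while an edgeR fit with the replicate number as a block called 1 (Lemd2), where it called 9.26% of all genes tested. At an unadjusted p under 0.05 there was 1 of the 10 (Lemd2), against 782 (5.57%) of all genes tested. The median absolute log2 fold change was 0.08 over the 10 genes and 0.16 over all genes tested, which were not matched to the 10 for level.

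Levels were compared between genes per kilobase of annotated exon. In wt cells Banf1 was highest of the 10, at 157 ± 23.3 CPM per kilobase (SD, n = 2, as for all levels here). Next came Lbr at 34.7 ± 6.11, Emd at 31.7 ± 1.10 and Ankle2 at 30.8 ± 3.05 CPM per kilobase. The wt ranges of Lbr and Emd overlapped, as did those of Emd and Ankle2, so their order is not resolved. Tmpo followed at 25.8 ± 2.20 and Zmpste24 at 9.76 ± 0.28 CPM per kilobase. Lemd3 (8.32 ± 0.10), Lmna (6.56 ± 1.47), Tor1aip1 (5.91 ± 0.32) and Lemd2 (2.96 ± 0.53) were lowest in CPM per kilobase, and among these 4 the ranges of Lmna and Tor1aip1 overlapped. The other neighbours in the order had separate ranges in wt cells. In dKO cells the order was the same except that Tor1aip1, at 6.71 ± 0.14 CPM per kilobase, stood above Lmna at 5.54 ± 0.77.

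The order depended on the length used for some genes. With the length of the longest principal transcript in place of all annotated exons, a choice made after the data were seen, Tmpo moved from the fifth to the second place in wt cells, at 75.1 ± 6.41 CPM per kilobase. Lbr went to the fourth place and Lemd3 to the ninth, below Lmna. Banf1 stayed first and Lemd2 last with both lengths. With the principal length Tor1aip1 stood above Lmna in both genotypes. In wt cells these were at 16.4 ± 0.87 and 12.1 ± 2.71 CPM per kilobase. In dKO cells they were at 18.6 ± 0.40 and 10.3 ± 1.43 CPM per kilobase. The change in their order between genotypes thus depended on the length. Lbr stood below Emd in wt and above it in dKO cells with this length, with overlapping ranges in both.

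**Figure D1:**
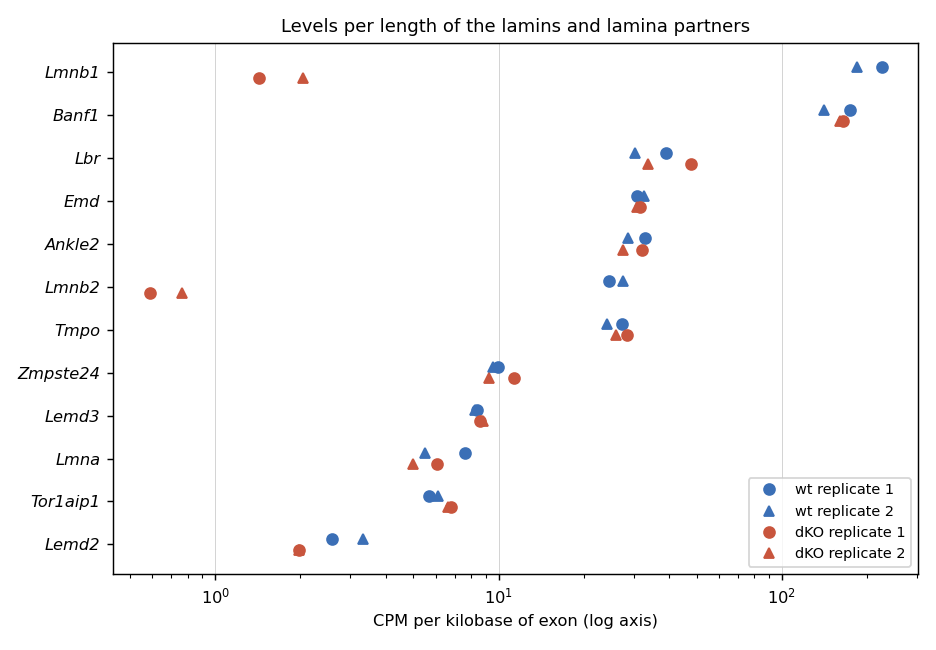
Levels of the lamins and the 10 lamina partner genes in CPM per kilobase of exon (log axis), ordered by the wt mean. Blue points are wt and red points dKO libraries, circles replicate 1 and triangles replicate 2. Lmnb1 and Lmnb2 drop to between 0.59 and 2.03 in dKO libraries, while wt and dKO points of the other genes lie nearer each other. The genotypes overlap for 7 of these and are separate for Lemd2, Lemd3 and Tor1aip1, with Lemd2 furthest apart.

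Among the lamin genes, Lmna had 2.95% and 2.54% of the summed Lmna, Lmnb1 and Lmnb2 level per kilobase in wt libraries. In dKO libraries it had 75.1% and 64.1%. The sum itself was 257 and 218 CPM per kilobase in wt against 8.11 and 7.80 CPM per kilobase in dKO libraries. The share depended on the length used. With principal transcript lengths Lmna had 5.02% and 4.30% in wt against 83.4% and 74.9% in dKO libraries. The larger share of Lmna in dKO libraries thus came with a sum that had lost most of Lmnb1 and Lmnb2, and with no higher level of Lmna.

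Lmna (ENSMUSG00000028063, chromosome 3, 88285070 to 88313878 in the coordinates of the table) encodes lamins A and C, which these counts per gene cannot separate. It had 44.3 and 32.2 CPM in wt replicates 1 and 2, against 35.5 and 29.2 CPM in dKO replicates 1 and 2. Replicate 1 was the higher library in both genotypes, and the genotypes overlapped. The log2 fold change was -0.24 (SE 0.21, adjusted p = 0.978 in edgeR), and its 95% interval ran from -0.75 to 0.27, that is from 0.595-fold to 1.20-fold. The replicates differed by more than the genotypes, by -0.46 in wt and -0.29 in dKO (log2, replicate 2 minus replicate 1). Between libraries of the same replicate number, which the labels do not pair, dKO minus wt was -0.32 in replicate 1 and -0.14 in replicate 2 (log2). Without wt replicate 1, which leaves the replicate numbers unbalanced between genotypes, the log2 fold change of Lmna was 0.0012. Fewer expressing cells and less RNA per cell cannot be told apart in such bulk libraries. The fibroblast marker sums given above, which rest on 78 to 132 counts per library, were higher in wt than in dKO libraries. Within each genotype, however, they were higher in replicate 2, where Lmna was lower. Trophoblast sums were also higher in replicate 2 of each genotype. Neural and primitive endoderm sums were higher in replicate 1 of each, as Lmna was. The part of any of these in the Lmna values was not tested.

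Zmpste24 (chromosome 4, 120731842 to 120770846) encodes the protease that trims farnesylated prelamin A to mature lamin A. It had 71.1 and 68.3 CPM in wt against 81.1 and 66.2 CPM in dKO libraries. The dKO libraries enclosed the wt values on both sides. Its log2 fold change was 0.08 (95% interval -0.28 to 0.44). The other 4 genes of prelamin processing enzymes had a median of 0.003 (-0.01 with total counts only), 2 positive and 2 negative. Of them 0 were called in edgeR and 0 had an unadjusted p under 0.05. They ran from Fnta, a farnesyltransferase subunit, at -0.15 to Icmt, the carboxyl methyltransferase, at 0.15.

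Lbr (chromosome 1, 183745447 to 183772532) encodes a membrane protein with a lamin- and chromatin-binding head and a sterol reductase domain. Its levels were 186 and 144 CPM in wt against 227 and 160 CPM in dKO libraries. Replicate 1 was again higher in both genotypes, and wt replicate 1 exceeded dKO replicate 2. The log2 fold change of 0.23 (SE 0.21, adjusted p = 0.981 in edgeR) was smaller than the replicate differences of -0.36 in wt and -0.50 in dKO. Its 95% interval ran from -0.29 to 0.76, so a rise of up to 1.69-fold is within it. Between libraries of the same replicate number, dKO minus wt was 0.29 in replicate 1 and 0.15 in replicate 2 (log2). Without dKO replicate 1, which again leaves the replicate numbers unbalanced, the log2 fold change of Lbr was -0.04.

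Partners and relatives of the lamin B receptor were taken as a list of 6, namely the HP1 genes Cbx1, Cbx3 and Cbx5, the kinase gene Srpk1, and the sterol reductase genes Tm7sf2 and Dhcr7. The log2 fold change was positive for 3 and negative for 3 of them, the median 0.05, and 0 were called. Cbx5 had the highest value (0.26, 95% interval -0.06 to 0.58), at 507 and 533 CPM in wt against 576 and 666 CPM in dKO libraries. Tm7sf2, which encodes the other reductase acting at the same step of cholesterol synthesis as the lamin B receptor, had the lowest (-0.37, 95% interval -1.25 to 0.50). It had 6.96 and 12.1 CPM in wt against 6.08 and 8.65 CPM in dKO libraries, low levels with overlapping genotypes.

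The LEM-domain group held 5 of the 10 genes. Tmpo (chromosome 10, 90610316 to 90634759) encodes the LAP2 proteins, of which some span the inner nuclear membrane and the alpha form is nucleoplasmic and binds A-type lamins. The count per gene sums all forms. Tmpo had 300 and 266 CPM in wt against 313 and 286 CPM in dKO libraries, overlapping by genotype (log2 fold change 0.08, 95% interval -0.23 to 0.39). Emd (chromosome X, 71500026 to 71506887) encodes emerin, which is held at the inner membrane by A-type lamins. It had 77.9 and 81.8 CPM in wt against 79.3 and 77.4 CPM in dKO libraries, within a few CPM of each other in all 4 (-0.03, 95% interval -0.31 to 0.26). Part of its annotated sequence resembles Eif1 and its pseudogenes, so reads there are uncertain.

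Ankle2 (chromosome 5, 110660060 to 110685666), whose product promotes the dephosphorylation of BAF as cells leave mitosis, had 182 and 158 CPM in wt against 177 and 152 CPM in dKO libraries. Its log2 fold change was -0.05 (95% interval -0.39 to 0.30), and in both genotypes replicate 1 was the higher library. Lemd3 (chromosome 10, 120360469 to 120416388) encodes MAN1, an inner membrane protein that also binds receptor-regulated SMADs. Its values were 40.3 and 39.6 CPM in wt against 41.4 and 42.5 CPM in dKO libraries. Both dKO values were above both wt values, by a log2 fold change of 0.07 (95% interval -0.24 to 0.38; adjusted p = 0.990 in edgeR).

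Lemd2 (ENSMUSG00000044857, chromosome 17, 27326546 to 27341383) encodes a LEM-domain protein that recruits membrane-sealing factors to the reforming envelope. It was the least abundant of the 10 genes and had the largest difference. The counts were 161 and 247 in wt against 157 and 161 in dKO libraries. These were 12.6 and 16.2 CPM in wt against 9.64 and 9.60 CPM in dKO libraries, so both dKO libraries lay below both wt libraries. The log2 fold change was -0.58 (SE 0.22, unadjusted p = 0.0404, adjusted p = 0.867 in edgeR), larger than the replicate differences of 0.37 in wt and -0.01 in dKO. Its 95% interval ran from -1.13 to -0.04, and 89.6% of all genes tested had a smaller absolute log2 fold change. With the replicate number as a block it passed (adjusted p = 0.0299 in edgeR). Without wt replicate 2 the value was -0.39, and without wt replicate 1 it was -0.76. An unnamed row of the table (ENSMUSG00000090473) overlaps the span of Lemd2 by 2040 bases and had 6 and 17 counts in wt against 3 and 7 in dKO libraries.

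Of the remaining LEM-domain genes, Ankle1 had a log2 fold change of 0.19 (95% interval -0.28 to 0.66) and Lemd1 did not pass the low-count filter, with at most 10 counts in a library.

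Banf1 (chromosome 19, 5364641 to 5366645) encodes BAF, which cross-bridges DNA and gathers LEM-domain proteins to the chromosome surface. It had 260 and 211 CPM in wt against 246 and 239 CPM in dKO libraries. Both dKO values lay between the wt values (log2 fold change 0.05, 95% interval -0.30 to 0.40). It shares annotated sequence with its neighbour Eif1ad, which makes reads there uncertain. The 6 kinase and phosphatase subunit genes that act on BAF had a median of -0.05, 2 positive and 4 negative, with 0 called. The highest was Vrk1, the main BAF kinase, at 0.12, and the lowest was Vrk2 at -0.27 (95% interval -1.06 to 0.53), a gene with under 6 CPM in each library.

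Tor1aip1 (chromosome 1, 157851729 to 157883610) encodes LAP1, an inner membrane protein that binds lamins and activates torsin ATPases. It had 30.7 and 33.1 CPM in wt against 36.8 and 35.7 CPM in dKO libraries. Both dKO libraries were above both wt libraries, with a log2 fold change of 0.18 (SE 0.14, 95% interval -0.15 to 0.52, adjusted p = 0.969 in edgeR). In the table its span overlaps Tor1aip2 on the opposite strand by 1078 bases and an unnamed row (ENSMUSG00000079252) by 755 bases. That row had 1319 and 1254 counts in wt against 1750 and 1596 in dKO libraries, where Tor1aip1 had 393 and 504 against 600 and 599. Reads there are uncertain, since the strand setting of the counting is not given in the sources used here. All 5 genes of the torsin list, Tor1a, Tor1b, Tor2a, Tor3a and Tor1aip2, had negative values (median -0.04), with 0 called and 0 at an unadjusted p under 0.05. Over all genes tested, 7061 of 14027 values were negative. Within replicate number 2, dKO minus wt was positive for Tor2a (0.18) and Tor3a (0.23), and within number 1 for Tor1aip2 (0.05). Tor1a and Tor1b were negative in both. They ran from Tor1b, an envelope-lumen ATPase, at -0.28 (95% interval -0.60 to 0.04) to Tor3a at -0.01.

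Both dKO libraries exceeded both wt libraries for 2 of the 10 genes (Lemd3 and Tor1aip1), where 17.2% of all genes tested did so. Both were below for 1 of the 10 (Lemd2), where 16.4% did so. For the other 7 the genotypes overlapped. For 6 of the 10 (Lmna, Lbr, Tmpo, Ankle2, Banf1 and Zmpste24) replicate 2 was below replicate 1 in both genotypes. The summed level of the 10 genes showed the same, at 1205 and 1051 CPM in wt against 1247 and 1098 CPM in dKO replicates 1 and 2. The share of all genes tested that were lower in replicate 2 of both genotypes was not computed. Replicate differences in wt and dKO correlated across all genes tested (r = 0.68), so this is not particular to the 10 genes.

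**Figure D2:**
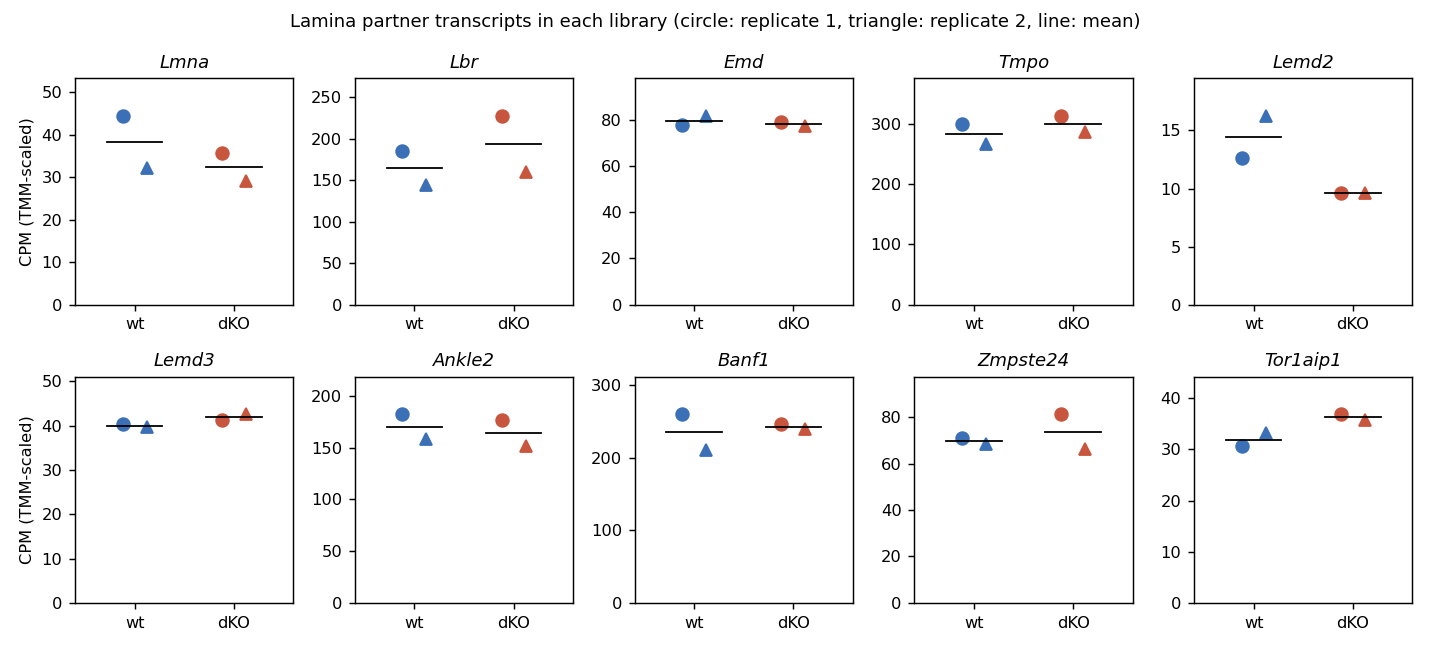
CPM (TMM-scaled, each axis from 0) of the 10 lamina partner genes in wt (blue) and dKO (red) libraries, with circles for replicate 1, triangles for replicate 2 and a line at each genotype's mean of 2 libraries. The genotypes are separate for Lemd2, Lemd3 and Tor1aip1 and overlap for the other 7.

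The intervals set how large a change these libraries leave possible, here in the edgeR fit on genotype alone. With a replicate block, given below, those of Lmna and Lbr were narrower and left out 0. The 95% interval of the log2 fold change lay within 1 of 0 for 9 of the 10 genes, against 65.5% of all genes tested, with Lemd2 the exception. It lay within 0.5 of 0 for 6 of the 10 (Emd, Tmpo, Lemd3, Ankle2, Banf1 and Zmpste24), against 26.3% of all genes tested. The SEs of these 6 ran from 0.12 (Emd) to 0.14 (Zmpste24). Over all genes tested the median SE was 0.21. Those genes were not matched to the 10 for level, so neither share is a like comparison. The highest upper bound was that of Lbr (1.69-fold), followed by Tor1aip1 at 1.43-fold.

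**Figure D3:**
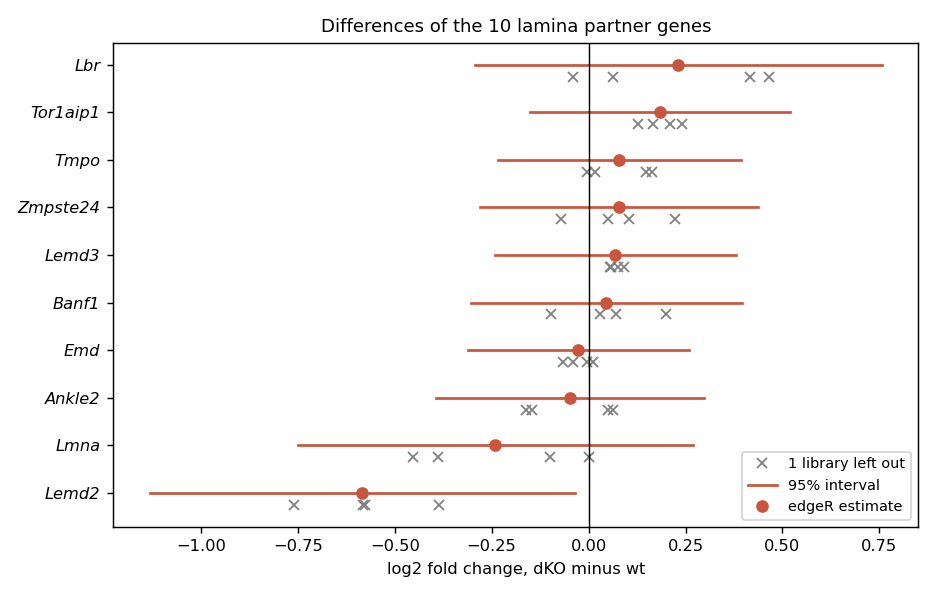
Log2 fold changes (dKO minus wt) of the 10 genes from edgeR, with points for the estimates, bars for 95% intervals and grey crosses for the estimates with 1 library left out. In this fit on genotype alone the interval of Lemd2, from -1.13 to -0.04, is the only one that leaves out 0. For 7 genes (Lbr, Tmpo, Zmpste24, Banf1, Emd, Ankle2 and Lmna) a cross lies on the other side of 0.

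The remaining lists covered the membrane itself. All 8 genes of membrane remodelling at the reforming envelope had negative values, with a median of -0.15 and 0 called in edgeR. Within replicate number 2, dKO minus wt was positive for Chmp2a (0.08) and Chmp4b (0.002), and the others were negative in both replicate numbers. Over all genes tested, 7061 of 14027 values were negative. Ist1, which encodes a partner of the ESCRT-III filament, had the lowest value of this list. It had 161 and 187 CPM in wt against 122 and 133 CPM in dKO libraries, with both dKO libraries below both wt libraries (log2 fold change -0.45, 95% interval -0.77 to -0.12, unadjusted p = 0.0151, adjusted p = 0.720 in edgeR). Chmp2a, a filament subunit, was nearest 0 at -0.02. Chmp7, the subunit that Lemd2 protein recruits, had 36.2 and 38.1 CPM in wt against 34.0 and 30.2 CPM in dKO libraries (-0.21, 95% interval -0.56 to 0.14), and was named after its value was seen.

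The 7 other inner nuclear membrane genes had a median of 0.09, 5 positive and 2 negative, with 0 called. Sun2, a component of the bridge to the cytoskeleton, had the highest value (0.15, 95% interval -0.42 to 0.71). Tmem43, which encodes an emerin-binding protein, had the lowest, at 48.5 and 65.0 CPM in wt against 37.8 and 46.1 CPM in dKO libraries (-0.44, 95% interval -0.92 to 0.04). Its genotypes did not overlap. Both dKO libraries were above both wt libraries for 4 and below them for 8 of the 37 tested genes in the 7 lists, against the 17.2% and 16.4% of all genes tested. Over the 7 lists together, 37 of 38 genes were tested, 13 had positive and 24 negative values (median -0.04), and 0 passed in edgeR, with 1 (Ist1) at an unadjusted p under 0.05.

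**Figure D4:**
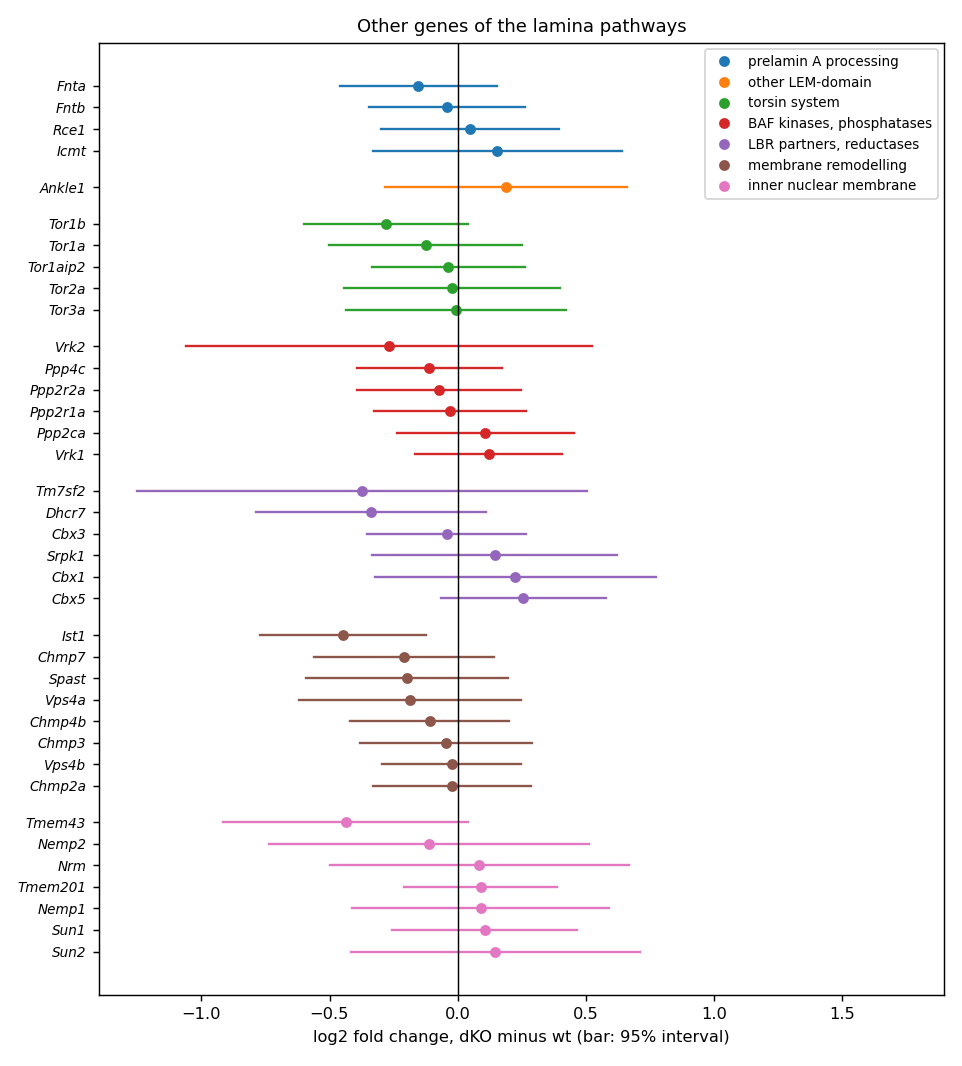
Log2 fold changes (dKO minus wt, edgeR) of the 37 tested genes of the other lamina pathway lists, coloured by list, with points for estimates and bars for 95% intervals. Ist1 at -0.45 is the only gene whose interval leaves out 0, and all 8 membrane remodelling genes and all 5 torsin genes lie below 0.

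The genes with the profile most like that of Lmna over the 4 libraries were Mea1, Pinx1 and Limd2, at Euclidean distances of 0.033, 0.042 and 0.043 in centred log2 CPM. The median distance over the 8782 protein-coding genes compared was 0.50. Mea1, the nearest, had 55.8 and 40.6 CPM in wt against 43.7 and 36.9 CPM in dKO libraries, higher in replicate 1 of both genotypes as Lmna was. With 4 libraries this likeness is a description only.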

How the data were processed

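The authors deposited raw read counts per Ensembl gene for 4 libraries, as 1 table with gene positions. Total RNA was extracted with Trizol and made into TruSeq libraries, per the labels' protocols. The submitters' processing notes list TopHat2 2.0.6, TopHat and HTSeq without roles. No source used here gives the build, annotation or strand setting, and positions are those of the table. Symbols and exon lengths came from GENCODE M21 by gene ID, which named 32938 of 37991 rows. Titles gave each library its genotype. Replicates differed by more than counting noise (chi-square over degrees of freedom 22.0 in wt and 21.8 in dKO), and all were used.

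Counts were filtered with filterByExpr, TMM-scaled and tested with edgeR 4.0.16 (R 4.3.3, robust quasi-likelihood, genotype only, Benjamini-Hochberg over 14027 genes, threshold 0.05). SEs and intervals came from the F statistic. Fits were also run on simulated counts, drawn independently for each library. These lack the correlated replicate differences of the real data, so they cannot check the intervals under that structure. Alternatives used DESeq2 1.42.0, limma 3.58.1, other scalings and filters, a replicate block and each library left out. Copies were searched with blastn 2.17.0 in M21 transcripts (at least 90% identity over 200 bases). Such sequence is shared by Emd with Eif1 and its pseudogenes, Banf1 with Eif1ad and Gm5393, Lbr with Dnah14, Tmpo with Gm26765 and Tor1aip1 with Tor1aip2, so reads there are uncertain.

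Named genes were the B-type lamins, the 10 listed genes, the highest and lowest of each list, and the 3 profiles nearest to Lmna (protein-coding, mean CPM at least 10). The 10 genes and the lists were chosen with earlier results of these data known. With 2 libraries per genotype an exact permutation test cannot go below p = 0.333.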

Additional observations from a re-analysis of the deposited data

How the results depend on the processing

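None of the 10 lamina partner genes was called in edgeR with other size factors, total counts only, other filters or any library left out, nor by the DESeq2 test or limma-voom. With a replicate block 1 was called, Lemd2 (log2 fold change -0.58, adjusted p = 0.0299 in edgeR), as 1 of 1299 genes called among all tested (9.26%). With the block the 95% intervals also left out 0 for Lmna (-0.46 to -0.0019, adjusted p = 0.221 in edgeR) and Lbr (0.034 to 0.41, adjusted p = 0.138 in edgeR), which were not called. Over all alternatives the adjusted p of Lemd2 ran from 0.0299 to 0.9998. The labels do not say that replicate numbers pair the libraries. Across genes, the differences between replicates 2 and 1 in wt and in dKO correlated at r = 0.68, which hints at pairing but is no part of the design. The count of 12 called genes was 80 with no filter, 96 by the DESeq2 test and 5 by limma-voom. It ran from 18 to 27 with 1 library left out. The median of the 10 genes ran from -0.040 (without dKO replicate 1) to 0.090 (without wt replicate 1). Of 110 values of single genes under 11 alternatives, 102 kept their sign. Most of the alternatives refit the same 4 libraries, where the estimates hardly moved. The 8 reversed values, in 7 of the 10 genes, came with 1 library left out, which unbalances the replicate numbers between genotypes. There Lmna ran from -0.45 (without wt replicate 2) to 0.0012 (without wt replicate 1) and Lbr from -0.040 to 0.47 (without replicates 1 and 2 of dKO). Emd ran from -0.066 to 0.011, Tmpo from -0.0038 to 0.16, Ankle2 from -0.16 to 0.063, Banf1 from -0.097 to 0.20 and Zmpste24 from -0.072 to 0.22. Lemd2, Lemd3 and Tor1aip1 kept their sign under all 11. A fit with 1 library in a genotype assumes that it varies like the other genotype.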

Other observations

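Ratios within a library set the lamina genes against each other, and were chosen after the data were seen, with no test. The level of Lmna per kilobase was 0.195 and 0.182 of that of Lbr in wt replicates 1 and 2, against 0.128 and 0.149 in dKO replicates 1 and 2. Lamin A and the lamin B receptor are known as the 2 tethers of heterochromatin at the nuclear edge, and this ratio was lower in both dKO than in both wt libraries. With principal transcript lengths it was 0.266 and 0.248 in wt against 0.174 and 0.203 in dKO libraries. Lemd2 per kilobase was 0.308 and 0.404 of Lemd3 in wt against 0.230 and 0.223 in dKO libraries. Zmpste24 was 1.31 and 1.73 times Lmna per kilobase in wt against 1.86 and 1.85 times in dKO libraries. These 3 ratios do not overlap between genotypes, and 2 of them share Lmna. Of all 45 pairs of the 10 genes, 20 had ratios that do not overlap, so such a separation is common among these pairs. The share over pairs of all genes tested was not computed, so these counts cannot be called particular to the 10 genes. Among the 9 pairs with Lmna it held for 6, so the ratio to Lbr is not particular in this. The 5 LEM-domain genes summed to 102 and 96.9 CPM per kilobase in wt against 103 and 95.1 CPM per kilobase in dKO libraries, where the genotypes overlapped.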
